A study of Mus musculus with 38 samples.

Results

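The genes described here are 10 genes that define or mark plasma cells: Irf4, Prdm1, Pou2af1, Igj, Mzb1, Sdc1, Cd38, Slamf7, Cd48 and Ptprc. They were taken by symbol from a table of 13260 genes, and 10 of the 10 symbols were found in it. Igj is listed under its older name and is called Jchain in current annotation. RNA-Seq was performed on 38 libraries of 100 cells each, sorted by flow cytometry from the bones of C57Bl/KaLwRij mice. Mice received vehicle or 5TGM1-GFP cells by intravenous injection at 8 to 10 weeks of age, and tissue was collected 23 days later. 5TGM1 is a line of mouse myeloma cells, a malignancy of plasma cells, and here it carries green fluorescent protein (GFP). The study asked how myeloma changes the cells that line bone, and how myeloma cells at the bone lining differ from those in the central marrow.

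Endothelial cells, gated as CD31+ and negative for CD45 and Ter119, gave 5 libraries from healthy and 5 from myeloma-bearing mice. Stromal progenitors, gated as Sca1+ALCAM- among cells without CD31, CD45 and Ter119, gave 5 and 5. Osteoprogenitors, gated as ALCAM+Sca1- among the same cells, gave 4 and 4. Myeloma cells, sorted on GFP, gave 5 libraries from the bone lining and 5 from the central marrow of myeloma-bearing mice. Since the myeloma cells are all from 1 line, they are a model of that line and not of plasma cells in general, and no library of normal plasma cells was analysed here. CD45 is the protein of Ptprc, so its low level in the 28 niche libraries was set by the sort. The study itself used Ptprc, Cd48, Slamf7 and Igj as markers of the myeloma cells of these samples, and their excess there is not independent evidence. Replicates are named by the letter of the library code, and the series' design text says that the replicates of a cell type and condition are from different mice.

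Plasma cells are the antibody-secreting end stage of the B cell lineage. Their programme is set by transcription factors, chiefly Irf4 and Prdm1 with Xbp1, which shut down B cell genes and expand the endoplasmic reticulum, and it is read out by secretory proteins and by surface proteins used to identify the cells. In myeloma, several of these surface proteins, CD38 and SLAMF7 among them, are targets of therapeutic antibodies.

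Total reads on genes, recovered from the table, ran from 9735031 to 34883291 per library. The summed level of 5 endothelial markers was 570.3 to 1374 RPKM (reads scaled by gene length and library depth) in endothelial libraries and at most 23.6 in any other. The sum of 8 osteoprogenitor markers was 8089 to 64320 RPKM in osteoprogenitors and at most 1212 elsewhere. The 5 stromal progenitor markers summed to 957.9 to 3036 RPKM in their own cells but to 2253 to 8771 in endothelial cells, where Ly6a, the gene of Sca1, led the sum. Pdgfra, a stromal marker outside the gate, averaged 52.9 and 61.7 RPKM in stromal progenitors of healthy and myeloma-bearing mice and at most 1.49 in endothelial cells. Prrx1 and Pdgfrb were likewise higher in stromal progenitors on average, but Lepr, at 21.9 and 39.9 RPKM there and 20.9 and 22.7 in endothelial cells, hardly set the cells apart. Granulocyte RNA stood out in 2 stromal progenitor libraries, healthy L and myeloma E, where the 9 myeloid and granulocyte markers summed to 7406 and 8308 RPKM against 0.476 to 180 in the other 8. In bulk samples fewer cells of a type and less RNA per cell cannot be told apart.

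**Figure D1:**
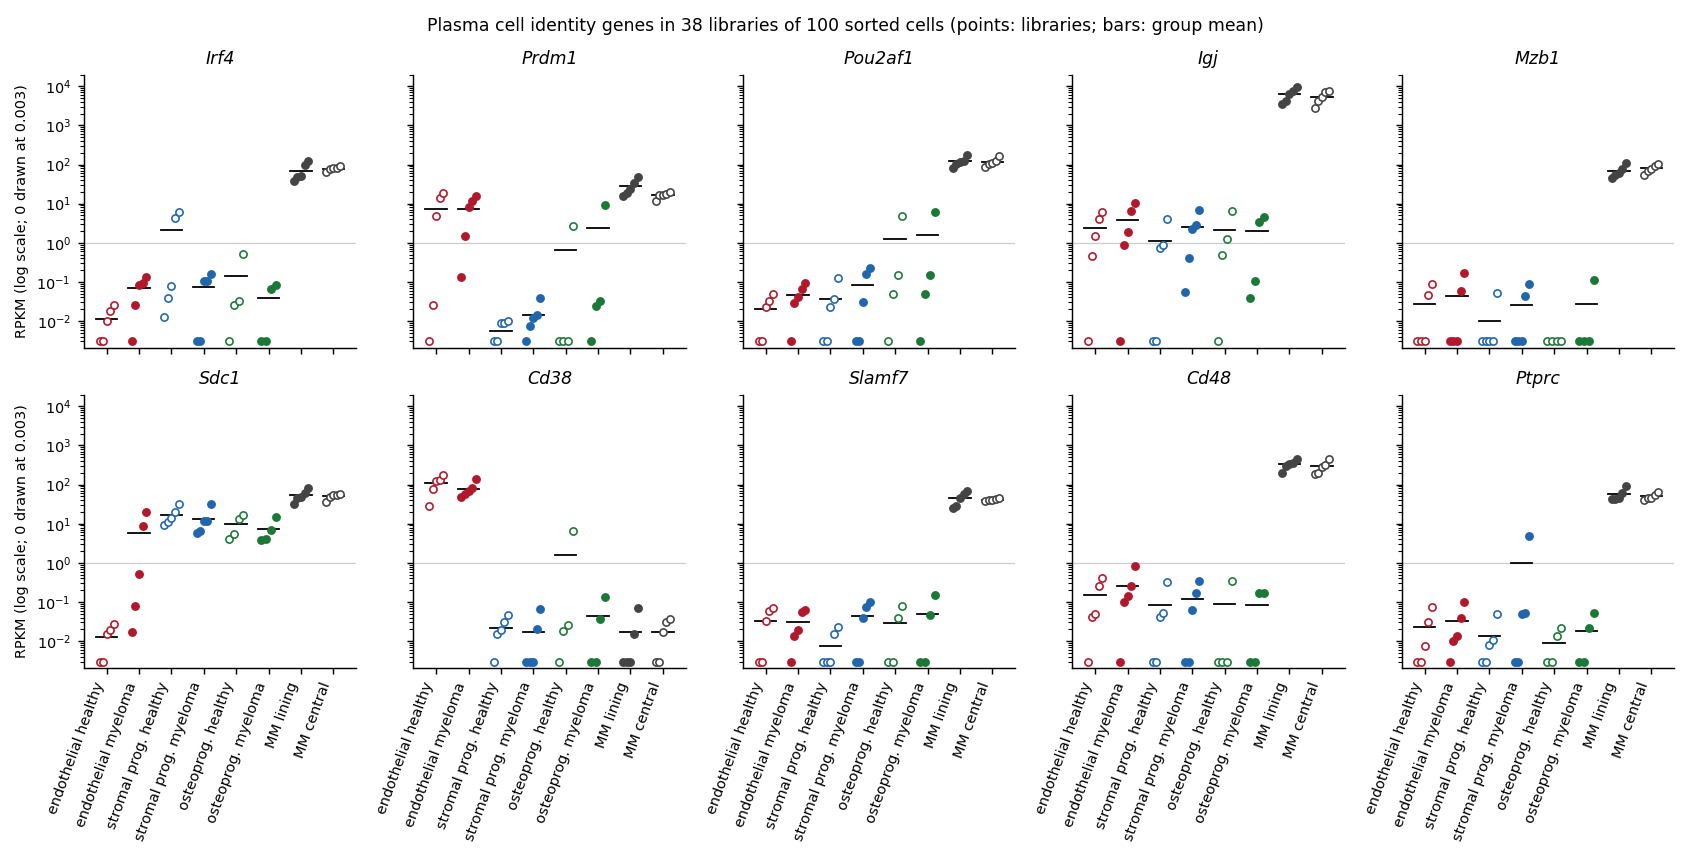
Each panel plots the RPKM of 1 gene (log scale, with 0 drawn at 0.003) in the 38 libraries, as points by group, with a bar at the group mean. Filled points are myeloma-bearing mice or bone lining, open points healthy mice or central marrow. 9 of the 10 genes sat highest in the myeloma cells (MM), whereas Cd38 was high in endothelial cells and near 0 in MM.

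In the 10 libraries of myeloma cells, 9 of the 10 genes were clearly measured and Cd38 was not. Igj, the joining chain that links antibody units into polymers, stood far above the others at 5803 ± 2098 RPKM (mean ± SD, n = 10), the level ranked 2 among all 13260 genes. Cd48, a receptor of the SLAM family on haematopoietic cells, followed at 311 ± 98.6 RPKM. The range of Igj (2843 to 9357) lay above that of Cd48 (189 to 461), which in turn lay above that of Pou2af1 (81.2 to 181).

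Below these, neighbours in the order overlapped. Pou2af1 averaged 120 ± 32.0 RPKM, Irf4 74.7 ± 25.6, Mzb1 74.2 ± 22.01, Ptprc 53.4 ± 16.3, Sdc1 51.8 ± 14.0 and Slamf7 43.2 ± 12.9 (SD, n = 10). Prdm1, at 22.4 ± 10.9 RPKM, was the lowest of the 9, and its range of 11.7 to 48.2 overlapped that of Slamf7, 24.8 to 69.0. RPKM is scaled by gene length, so these levels can be compared between genes.

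Positions are those of GENCODE M21 on GRCm38, and the 9 genes placed here are protein-coding. Irf4 lies on chromosome 13 at 30749226 to 30766976 (plus strand), Prdm1 on chromosome 10 at 44437177 to 44528501 (minus) and Pou2af1 on chromosome 9 at 51213708 to 51240080 (plus). Igj lies on chromosome 5 at 88519809 to 88527891 (minus), and Cd38 is on the same chromosome at 43868553 to 43912375 (plus). Sdc1 is on chromosome 12 at 8771323 to 8793715 (plus). Ptprc (138062861 to 138175708, minus), Slamf7 (171632403 to 171653035, minus) and Cd48 (171682009 to 171705258, plus) are on chromosome 1, the last 2 in the same cluster of SLAM family genes. Exons of Slamf7 overlap the antisense gene Gm37787, and with counting that does not use strand, reads of the pair cannot be told apart.

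Irf4 is the transcription factor on which plasma cells and myeloma cells depend. Its RPKM in myeloma cells of the bone lining was 122 in replicate D, 49.5 in E, 48.2 in G, 94.7 in I and 36.9 in J. In the central marrow it was 93.5, 80.4, 74.8, 65.8 and 80.8 in the same order. The lining values spread more widely and enclosed the central ones. In 26 of the 28 niche libraries Irf4 was at most 0.507 RPKM, but stromal progenitors of healthy mice held 4.32 RPKM (399 reads) in C and 6.25 (654 reads) in O. No other plasma cell gene of the list except Sdc1 passed 1 RPKM in those 2 libraries, and Igj was at 0 reads in both.

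Prdm1 encodes Blimp-1, the repressor that closes the B cell programme and is needed for plasma cell secretion. In the bone lining it was measured at 48.2 RPKM in D, 24.4 in E, 19.1 in G, 34.1 in I and 15.5 in J. In the central marrow it was 19.8, 18.2, 16.3, 11.7 and 16.3. Prdm1 showed the largest difference between sites among the 9 genes, with 3 of 5 lining libraries above every central library, and the groups overlapped.

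Prdm1 was not confined to the myeloma cells, and its level in niche libraries ran from 0 to 18.2 RPKM. In endothelial cells of healthy mice it was 4.80 RPKM in C, 0 in L, 0.0249 in M, 14.3 in N and 18.2 in O. In endothelial cells of myeloma-bearing mice it was 11.5 in D, 8.40 in E, 1.49 in G, 15.9 in I and 0.135 in J. Thus 7 of 10 endothelial libraries were above 1 RPKM and the ranges in the 2 conditions overlapped. Lck, a T cell kinase and the only T and NK cell marker in the table, was 4.83, 0, 39.0, 0 and 40.0 RPKM in the healthy libraries in the same order and 39.8, 0.169, 29.9, 89.8 and 0.681 in the others. The 4 erythroid and megakaryocyte markers, of which Pf4 was the main part (104 and 131 RPKM on average), summed to 14.3 to 236 RPKM in the 7 endothelial libraries with Prdm1 above 1 RPKM, and to 0.310 in L, 6.90 in M and 193 in J. Lck thus did not follow Prdm1, while the erythroid and megakaryocyte sum was low in L and M, where Prdm1 was near 0, but not in J. The part of such cells in the Prdm1 values was not tested. Stromal progenitors held at most 5 reads per library (0.0390 RPKM), and osteoprogenitors were at or under 0.0317 RPKM except healthy N (2.63) and myeloma G (9.27).

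Pou2af1, or OBF-1, is the coactivator that joins the octamer-binding factors Oct1 and Oct2 at immunoglobulin promoters. Bone lining libraries gave 181, 117, 81.2, 126 and 106 RPKM in D, E, G, I and J, and central marrow libraries 84.7, 126, 109, 102 and 166. The sites overlapped almost fully. In the niche Pou2af1 stayed at or under 0.228 RPKM (at most 10 reads) in 26 libraries, while osteoprogenitor libraries healthy L and myeloma G held 4.73 RPKM (155 reads) and 6.23 RPKM (294 reads). Myeloma G is also the osteoprogenitor library with the high Prdm1 value, but its Igj was 0.104 RPKM (4 reads) and its Irf4, Mzb1, Slamf7, Cd48 and Ptprc were at 0.

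Promoter sequence is shown for Pou2af1, Prdm1, Igj and Cd38, 2 of them regulators, 1 the most abundant product and 1 the gene near 0 in myeloma cells. The start is the annotated one, and which start was used was not measured here. The windows of Prdm1 and Cd38 lie inside the gene spans given above, downstream of their outermost starts. Each is 250 bases before to 50 after the start, 5′ to 3′ on the strand of the gene, from RefSeq on GRCm38.p6. Capitals mark a match to a motif searched on both strands: the octamer ATTTGCAT, its first 7 letters ATTTGCA, and TGACGTGG, a site bound by Xbp1 and Atf6. The 7-letter form and TGACGTGG were added after the sequences had been seen.

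Pou2af1 (chr9:51213440-51213739, plus): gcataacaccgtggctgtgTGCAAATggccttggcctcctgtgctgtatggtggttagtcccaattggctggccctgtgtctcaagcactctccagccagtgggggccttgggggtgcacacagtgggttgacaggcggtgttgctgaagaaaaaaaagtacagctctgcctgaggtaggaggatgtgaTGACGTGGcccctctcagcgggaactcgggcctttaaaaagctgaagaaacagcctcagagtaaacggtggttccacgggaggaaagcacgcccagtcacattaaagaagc

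Prdm1 (chr10:44458699-44458998, minus): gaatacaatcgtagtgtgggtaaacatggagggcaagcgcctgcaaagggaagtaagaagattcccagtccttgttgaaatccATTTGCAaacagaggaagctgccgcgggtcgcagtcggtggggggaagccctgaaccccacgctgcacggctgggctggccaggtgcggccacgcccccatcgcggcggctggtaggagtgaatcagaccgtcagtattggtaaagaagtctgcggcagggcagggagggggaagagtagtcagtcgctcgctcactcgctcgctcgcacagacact

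Igj (chr5:88527848-88528147, minus): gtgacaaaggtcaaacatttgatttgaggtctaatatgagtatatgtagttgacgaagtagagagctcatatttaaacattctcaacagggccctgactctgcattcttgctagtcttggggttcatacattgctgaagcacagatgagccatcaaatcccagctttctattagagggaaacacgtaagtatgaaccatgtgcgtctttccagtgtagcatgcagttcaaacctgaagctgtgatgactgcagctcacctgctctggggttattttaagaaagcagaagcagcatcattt

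Cd38 (chr5:43868559-43868858, plus): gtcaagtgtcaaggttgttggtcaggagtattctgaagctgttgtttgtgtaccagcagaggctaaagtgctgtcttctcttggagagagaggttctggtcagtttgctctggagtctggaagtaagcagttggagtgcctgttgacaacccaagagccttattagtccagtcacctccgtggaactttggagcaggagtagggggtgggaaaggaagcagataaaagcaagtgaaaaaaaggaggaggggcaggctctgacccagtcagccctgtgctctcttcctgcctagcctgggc

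Pou2af1 held the 7-letter octamer core on the opposite strand, at positions -231 to -225 from the start, and TGACGTGG at -61 to -54. Prdm1 held the core at -167 to -161. Among 32851 RefSeq promoters of this length, 4.02% held the core, 1.74% the full octamer and 0.676% TGACGTGG. Promoters of 9 genes, 10 in all, were searched, and the full octamer was in none of them. The position and promoter of Mzb1 are not reported here. The same held for the interferon-stimulated response element (GAAA, any pair of bases, GAAA, in 3.44% of all promoters), the composite site of Ets factors with Irf4 (GGAA, any pair, GAAA, in 2.72%) and a Prdm1 core (GAAAG, any base, GAAA, in 1.096%). The letters of the response element include those of the Prdm1 core. A match is a description of letters, and its absence says nothing of the factors outside this window.

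Igj and Mzb1 represent antibody secretion, Mzb1 being a chaperone of the endoplasmic reticulum that helps to assemble IgM. Igj in the bone lining was 4150, 7436, 3616, 6399 and 9357 RPKM in D, E, G, I and J, and in the central marrow 5411, 2843, 4134, 7315 and 7370. Mzb1 was 75.9, 61.0, 44.6, 53.0 and 108 RPKM in the lining and 104, 94.1, 53.6, 77.8 and 70.4 in the central marrow. Both genes ranged about as widely within a site as between sites. Lining library J was the highest of the 10 in Igj and Mzb1 and also in Slamf7. Lining library D was instead the highest in Irf4, Prdm1, Pou2af1, Sdc1 and Ptprc, so the members did not rise and fall as a block among myeloma libraries.

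Mzb1 was virtually absent from the niche, with 11 reads over all 28 libraries and at most 2 in any library. That pooled level was 0.0313% of the mean of the myeloma cells (exact Poisson 95% interval 0.0156% to 0.0560%, counting error only).

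Sdc1 encodes syndecan-1 (CD138), the heparan sulphate proteoglycan by which plasma cells are usually sorted. Its RPKM in the bone lining was 82.8, 32.8, 47.9, 59.8 and 46.3 in D, E, G, I and J, and in the central marrow 57.4, 48.2, 53.3, 35.0 and 54.3. Unlike the other surface genes it was also a regular transcript of the mesenchymal niche. Stromal progenitors held 19.4, 9.26, 11.3, 32.2 and 13.8 RPKM in healthy C, L, M, N and O and 31.1, 11.4, 5.73, 6.68 and 11.5 in myeloma-bearing D, E, G, I and J. Osteoprogenitors held 5.36, 13.1, 16.3 and 3.95 RPKM in healthy L, M, N and O and 4.04, 3.84, 14.8 and 6.86 in myeloma-bearing D, G, I and J. All 18 libraries of these 2 cell types were above 1 RPKM, and the highest of them (32.2) lay just under the lowest myeloma library (32.8).

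In endothelial cells Sdc1 was near 0 in healthy mice, with at most 2 reads (0.0280 RPKM) in any of 5 libraries. In myeloma-bearing mice it was 0.0175 RPKM in D, 0.527 in E, 0.0804 in G, 8.92 in I and 20.2 in J. Hence 2 of 5 libraries, I with 366 reads and J with 2133, were well above every healthy library, while D lay within their range. The 8 osteoprogenitor markers summed to 155 RPKM in I and 120.1 in J, above the 16.4 to 97.8 of the other 8 endothelial libraries, and their part in the Sdc1 values was not tested. Only those 2 passed 1 RPKM, so the gene did not enter the filtered test. With no filter the difference was 1.68 (SE 0.85) on the log2(RPKM + 1) scale, with unadjusted p = 0.0791 and adjusted p = 0.871 by limma.

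Cd38 encodes an ectoenzyme that consumes NAD and is high on human plasma cells. In the 10 myeloma libraries it had 10 reads in all, at most 3 per library, and 5 libraries were at 0. In endothelial cells of healthy mice it was instead 78.4, 180, 29.1, 128 and 121 RPKM in C, L, M, N and O, and in those of myeloma-bearing mice 135, 80.4, 49.0, 67.0 and 58.7 in D, E, G, I and J. The 2 conditions overlapped, and every endothelial library was above 29 RPKM. The pooled level of myeloma cells was 0.0171% of the endothelial mean of 92.8 RPKM (exact Poisson 95% interval 0.00820% to 0.0314%, counting error only). Other niche cells held at most 5 reads per library, apart from osteoprogenitor library healthy M with 244 reads (6.45 RPKM), where the 5 endothelial markers summed to 0.442 RPKM and Lck was at 19.1 RPKM. Lck was also at 10.01 RPKM in osteoprogenitors myeloma I and 6.89 in healthy O, where Cd38 had 0 and 1 read.

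Slamf7 and Cd48 are neighbouring genes of the SLAM family, receptors and ligands between haematopoietic cells. Slamf7 in the bone lining was 28.6, 24.8, 58.7, 44.6 and 69.0 RPKM in D, E, G, I and J, and in the central marrow 39.0, 45.6, 39.3, 41.6 and 40.8. Cd48 was 193, 305, 340, 461 and 365 RPKM in the lining and 289, 200, 189, 451 and 322 in the central marrow. Slamf7 averaged alike at the 2 sites (45.1 ± 19.0 and 41.2 ± 2.66 RPKM), with a wider range in the lining. Niche libraries held at most 10 reads of Slamf7 and at most 15 of Cd48.

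Ptprc, the tyrosine phosphatase CD45 of nucleated haematopoietic cells, was 93.5, 41.9, 43.5, 61.9 and 44.4 RPKM in the bone lining and 44.8, 63.3, 40.0, 46.0 and 55.1 in the central marrow. The lining library D stood above the other 9. Of the niche libraries, which were sorted against CD45, 27 were at or under 0.0975 RPKM, and stromal progenitor library myeloma E held 4.89 RPKM (719 reads). That is 1 of the 2 stromal libraries with many granulocyte reads; the other, healthy L, had 1 read of Ptprc (0.0103 RPKM), and the part of granulocytes in either value was not tested.

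Low reads of the plasma cell genes were nevertheless found across the niche, in healthy and in myeloma-bearing mice. Igj, the deepest sequenced, had 0 to 357 reads per niche library and at most 10.4 RPKM. In healthy mice it was 6.14, 3.98 and 6.55 RPKM in endothelial cells, stromal progenitors and osteoprogenitors of letter M, and 1.49, 0.864 and 1.27 in those of letter L. In myeloma-bearing mice it was 10.4, 6.81 and 4.49 in letter I, and 0, 0.0537 and 0.0388 in letter J. Libraries of 1 letter therefore tended to lie close together whatever the cell type, although G (6.46, 0.398 and 0.104) and O (3.94, 0 and 0) did not.

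Set against the mean of the myeloma cells, these levels differed between genes, only in part through single libraries. Pooled over the 28 niche libraries, Igj was at 0.0388% of the myeloma level (exact Poisson 95% interval 0.0373% to 0.0404%), Cd48 at 0.0430% (0.0341% to 0.0535%) and Slamf7 at 0.0657% (0.05001% to 0.0847%). Over the same 28 libraries Irf4 was at 0.644%, Ptprc at 0.490% and Pou2af1 at 0.316%, and Prdm1 and Sdc1, held by niche cells, at 14.2% and 17.8%. Leaving out the 5 library values above 1 RPKM given above, a choice made after they were seen, Pou2af1 was at 0.0390% (0.0297% to 0.0504%), Ptprc at 0.0379% (0.0287% to 0.0491%) and Irf4 at 0.0738% (0.0614% to 0.0879%). Intervals cover counting error only. In letter M the 3 libraries held 0.0685% to 0.113% of the myeloma level of Igj and 0.104% to 0.132% of that of Cd48. In letter J they held at most 0.000926% of Igj and no read of Cd48. The source of these reads was not tested.

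**Figure D2:**
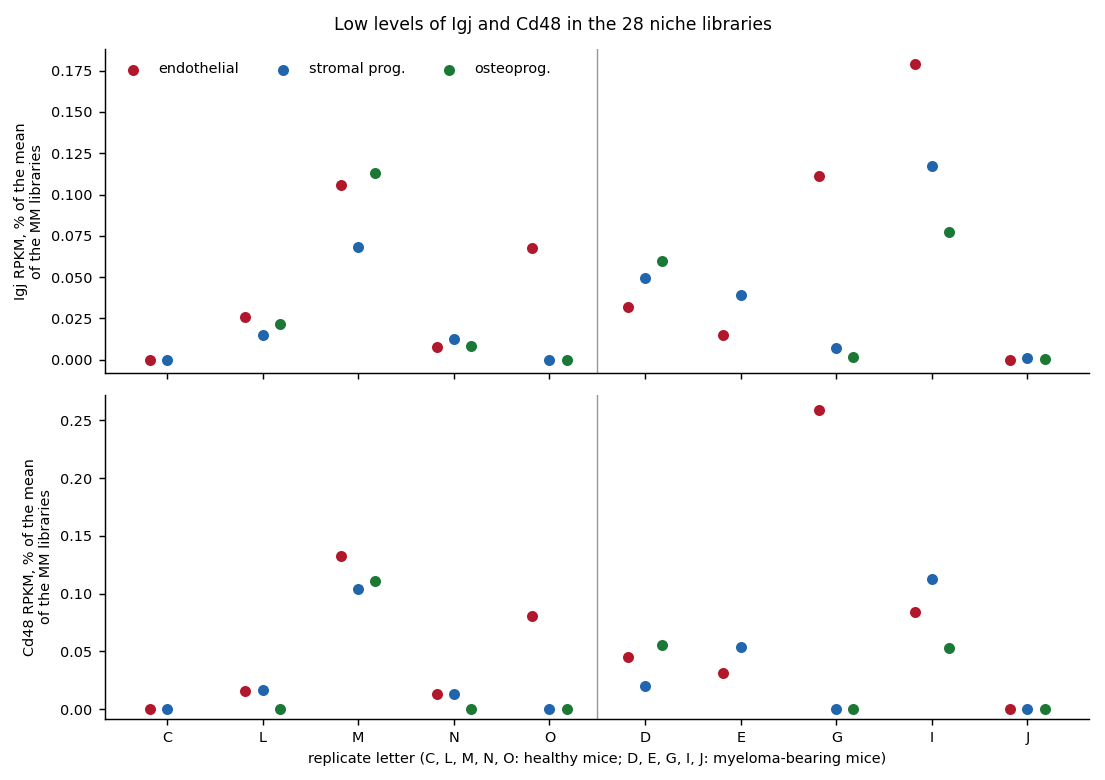
Igj (top) and Cd48 (bottom) in the 28 niche libraries are plotted as RPKM in percent of the mean of the 10 myeloma libraries, by replicate letter and coloured by cell type. Letters left of the line are healthy mice and those right of it myeloma-bearing mice. Both genes are raised in every cell type of M and I and in endothelial cells of G and O, and are at or near 0 in C and J.

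Between bone lining and central marrow myeloma cells, none of the members passed the test, which asks whether the location of a myeloma cell goes with its plasma cell identity. The test was limma on log2(RPKM + 1), and a gene was called where its log2 difference was over 1 in size and its p, adjusted by the method of Benjamini and Hochberg, was below 0.1. Of the 9 members tested 0 were called, beside 18 of 8857 genes overall (0.203%; 0.147% higher and 0.0565% lower in the lining). At an unadjusted p under 0.05 there were 0 members and 530 genes. The nearest was Prdm1, higher in the lining by 0.65 (SE 0.33, n = 5 and 5), with adjusted p = 0.844 by limma. The other 8 differences ran from -0.30 (Irf4, SE 0.30) to 0.22 (Cd48, SE 0.27). The 95% intervals, which hold the differences compatible with the data, were -0.05 to 1.36 for Prdm1 and -0.95 to 0.34 for Irf4. They were -0.42 to 0.80 for Igj and -0.62 to 0.65 for Slamf7. Voom-limma on the recovered reads also called 0 members. The signs of Ptprc, Slamf7, Sdc1, Pou2af1 and Igj were not stable when single letters were left out or libraries rescaled. Those of Irf4 and Cd48 were, but their sizes ran from -0.51 to -0.10 and from 0.06 to 0.42.

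In the niche, the question was whether these transcripts change when the mouse bears myeloma. Few members could be tested: Prdm1, Cd38 and Igj in endothelial cells, and Sdc1 and Igj in stromal progenitors and in osteoprogenitors. Of these 0 were called, beside 0 of 7880 genes in endothelial cells (0%), 0 of 8747 in stromal progenitors (0%) and 1 of 8664 in osteoprogenitors (0.0115%). The counts over all genes depend on the fit, since with all 38 libraries in it they were 258, 31 and 16, and 0 members were still called. The paper, with voom-limma, called more genes in each cell type at these thresholds. Where almost no gene is called, 0 members called says little of the members. None had an unadjusted p under 0.05, where 414, 437 and 422 genes had one, and voom-limma on the recovered reads also called 0 members. With no filter, 0 of 10 members were called in each cell type, and Irf4 in endothelial cells alone had an unadjusted p under 0.05 (0.0443), at a difference of 0.08 on the log2(RPKM + 1) scale between levels of 0 to 12 reads. Irf4 in stromal progenitors, high in healthy C and O, differed by -0.99 (SE 0.59, adjusted p = 0.892, limma).

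The intervals around these differences were wide. Cd38 in endothelial cells of myeloma-bearing mice differed by a log2 difference of -0.32 (95% interval -1.71 to 1.07), and Prdm1 by 0.34 (-2.24 to 2.92). Over the alternatives the Cd38 difference ran from -0.73 to -0.08. Sdc1 differed by -0.46 (-2.01 to 1.09) in stromal progenitors and by -0.34 (-2.21 to 1.54) in osteoprogenitors. Over the alternatives these ran from -0.81 to -0.21 and from -0.70 to -0.04. Igj differed by 0.37 (-1.64 to 2.37), 0.64 (-0.92 to 2.19) and 0.03 (-1.77 to 1.83) in endothelial cells, stromal progenitors and osteoprogenitors. The signs of 3 of these were not stable: Prdm1 in endothelial cells ran from -0.20 without healthy L to 1.67 by voom-limma on all 38 libraries, Igj there from -0.07 without myeloma I to 0.81 without myeloma J, and Igj in osteoprogenitors from -0.36 without healthy O to 0.42 without myeloma J. The differences are on the log2(RPKM + 1) scale, which shrinks those of low genes such as Igj. Whether the response differed between niche cell types was tested as an interaction, in which 4 members entered and 0 were called (0%, 0% and 0.00854% of 11713 genes in the 3 pairs of cell types). The largest was Sdc1, whose difference was 2.13 higher in endothelial cells than in stromal progenitors (SE 1.11, adjusted p = 0.869, limma).

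**Figure D3:**
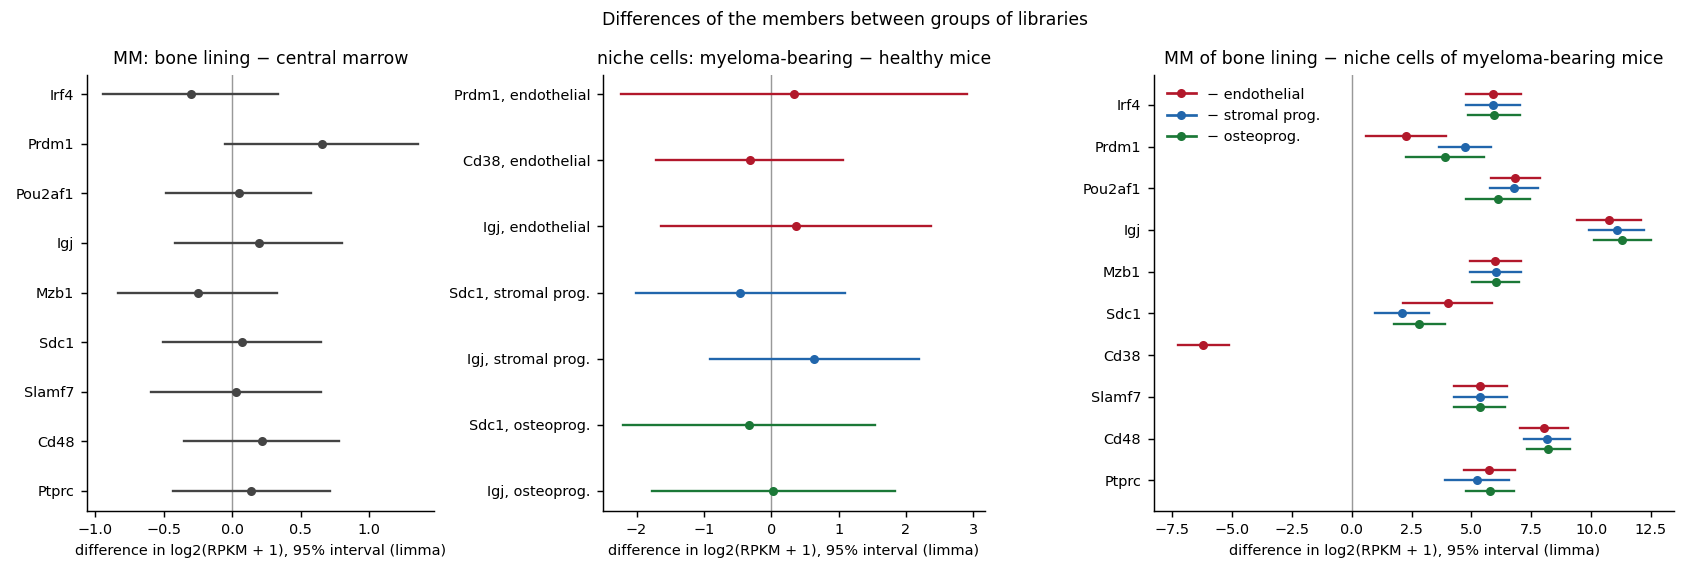
Points are differences in log2(RPKM + 1) with 95% intervals from limma, for myeloma cells of bone lining minus central marrow (left), niche cells of myeloma-bearing minus healthy mice (centre) and bone lining myeloma cells minus niche cells of myeloma-bearing mice (right). Intervals cross 0 in the left and centre panels, whereas in the right panel they lie above 0 except that of Cd38 against endothelial cells, below 0.

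Against the niche cells of myeloma-bearing mice, myeloma cells of the bone lining were set to differ, because most of the genes reached the filter through the myeloma libraries alone. With the filter, 10 members were called against endothelial cells, 9 higher and 1 lower, where 41.5% of all genes were called (24.4% higher, 17.1% lower). Against stromal progenitors 9 of 9 tested were higher (42.4% of genes called, 23.5% higher and 18.8% lower), and against osteoprogenitors 9 of 9 (42.9%, 24.5% and 18.4%). The counts with no filter cover all 10. Against endothelial cells 9 of 10 members were higher (15.3% of all 13260 genes were) and Cd38 lower (11.8%). Against stromal progenitors 9 of 10 were higher (15.9%), and the same number against osteoprogenitors (16.3%). Cd38 was at or near 0 on both sides of the last pair of comparisons. The comparisons share the 5 bone lining libraries. The median log2 difference of all genes that passed the filter was 0.49, 0.35 and 0.39 against the 3 cell types.

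The size of the difference follows, where the niche is near 0, the level in the myeloma cells and the pseudocount of 1. Igj was higher by 10.7 (SE 0.62), 11.1 (SE 0.53) and 11.3 (SE 0.54) on the log2(RPKM + 1) scale than in endothelial cells, stromal progenitors and osteoprogenitors. Cd48 was higher by 8.02, 8.18 and 8.21, and Pou2af1 by 6.83, 6.79 and 6.11. Irf4, Mzb1, Slamf7 and Ptprc were higher by 5.25 to 6.01 in each comparison. Against endothelial cells, these 4 genes with Cd48 and Pou2af1 differed by 8.36 to 10.2 with a pseudocount of 0.1 and by 10.3 to 11.5 by voom-limma on the recovered reads, so neither their sizes nor their order are fixed by the data. Sdc1 and Prdm1 differed least where the niche cells held them too. Sdc1 was higher by 2.12 (SE 0.52, adjusted p = 0.00636, limma) than in stromal progenitors, by 2.82 (SE 0.49, adjusted p = 6.8e-04) than in osteoprogenitors and by 4.02 (SE 0.86, adjusted p = 0.00303) than in endothelial cells.

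Prdm1 was higher by 2.27 (SE 0.77, adjusted p = 0.0366, limma) than in endothelial cells, 3.90 (SE 0.74) than in osteoprogenitors and 4.74 (SE 0.51) than in stromal progenitors. The first of these was no longer called without replicate G, where the difference was similar (2.08) and the adjusted p 0.116 with fewer libraries in the fit, and with central marrow cells in place of bone lining cells it was 0.101 (difference 1.61). Cd38 was lower than in endothelial cells by 6.19 on the log2(RPKM + 1) scale (SE 0.50, adjusted p = 1.1e-06, limma), but it reached the filter through the endothelial libraries alone and so had to differ. By voom-limma on the recovered reads Igj was not called against endothelial cells (adjusted p = 0.855) or stromal progenitors (adjusted p = 0.625), although its difference was 12.3 and 12.2, and the cause was not tested.

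The rest of the plasma cell programme was read from a list of 30 further genes, of which 27 were in the table. Tnfrsf17, Cd27 and Derl3 were not. Of 24 tested, 18 were higher in bone lining myeloma cells than in endothelial cells and 1 lower, 18 were higher and 1 lower against stromal progenitors, and 19 were higher and 2 lower against osteoprogenitors. Of all genes tested, 24.4% were higher and 17.1% lower in the first comparison, 23.5% and 18.8% in the second, and 24.5% and 18.4% in the third. The median log2 difference was 3.07, 3.09 and 3.11, beside 0.49, 0.35 and 0.39 over all genes tested. Many of these genes passed the filter only through the myeloma cells, so the counts are a description. The most abundant was Sec11c, a subunit of the signal peptidase, at 2988 ± 746 RPKM in the 10 myeloma libraries (SD). Slpi, a secreted protease inhibitor, was at 706 ± 320 RPKM and ranged from 235 to 1130. Xbp1, the factor of the unfolded protein response, was at 782 ± 132 RPKM and Hsp90b1, a chaperone of the endoplasmic reticulum, at 691 ± 113. Sec11c, Xbp1 and Hsp90b1 were also above 1 RPKM in all 28 niche libraries, whereas Slpi was in 9. Not every gene of the list was high in myeloma cells. Bhlha15, Cd28 and Prg2, named after their values were seen, averaged 0.459, 0.382 and 0.612 RPKM there.

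The genes of that list that were lower in myeloma cells, named after their values were seen, were Cd93 against endothelial cells, Zbtb20 against stromal progenitors, and Fkbp11 and Zbtb20 against osteoprogenitors. Fkbp11, a peptidyl-prolyl isomerase of secretory cells, averaged 430 RPKM in osteoprogenitors of myeloma-bearing mice and 68.4 in bone lining myeloma cells. Cd93, a glycoprotein of endothelial cells that long-lived plasma cells also carry, averaged 204 and 38.4 RPKM in endothelial and bone lining myeloma cells. None of the 24 tested genes was called between bone lining and central marrow (0.203% of all genes). Between healthy and myeloma-bearing mice 0 of 11 to 13 were called, where at most 0.0115% of all genes were.

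Genes of the B cell programme, much of which plasma cells turn off, were called in both directions. Of a list of 25, 12 were in the table, and those tested divided into 4 higher and 4 lower against endothelial cells, 4 and 3 against stromal progenitors, and 4 and 2 against osteoprogenitors, out of 8, 7 and 6, where 24.4%, 23.5% and 24.5% of all genes were higher and 17.1%, 18.8% and 18.4% lower. The 4 higher ones were in each case Cd74, the invariant chain of MHC class II (565 ± 138 RPKM in myeloma cells), Cd79b of the B cell receptor (360 ± 87.6), the adaptor Blnk (219 ± 27.4) and Fcrla, an Fc receptor-like protein (26.6 ± 13.1; SD, n = 10 each). The filter keeps a gene through the group in which it is high, so these counts are a description. With no filter the 12 genes gave 4 higher and 4 lower, 4 and 3, and 4 and 3, where 15.3%, 15.9% and 16.3% of all 13260 genes were higher and 11.8%, 14.0% and 16.3% lower. Those lower with the filter, named after their values were seen, were Id3 in all 3 comparisons, Ebf1 in 2, Bcl6 in 2, and Cd40 and Irf8 against endothelial cells. Bcl6, a repressor of the germinal centre that opposes Prdm1, averaged 0.202 RPKM in myeloma cells against 104 in stromal progenitors of myeloma-bearing mice. Ebf1, the factor of early B cells, averaged 0.0165 RPKM in myeloma cells. Of the B cell genes 0 of 5 tested were called between bone lining and central marrow (0.203% of all genes). Between healthy and myeloma-bearing mice 0 of 6, 3 and 3 were called in endothelial cells, stromal progenitors and osteoprogenitors (0%, 0% and 0.0115% of all genes).

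**Figure D4:**
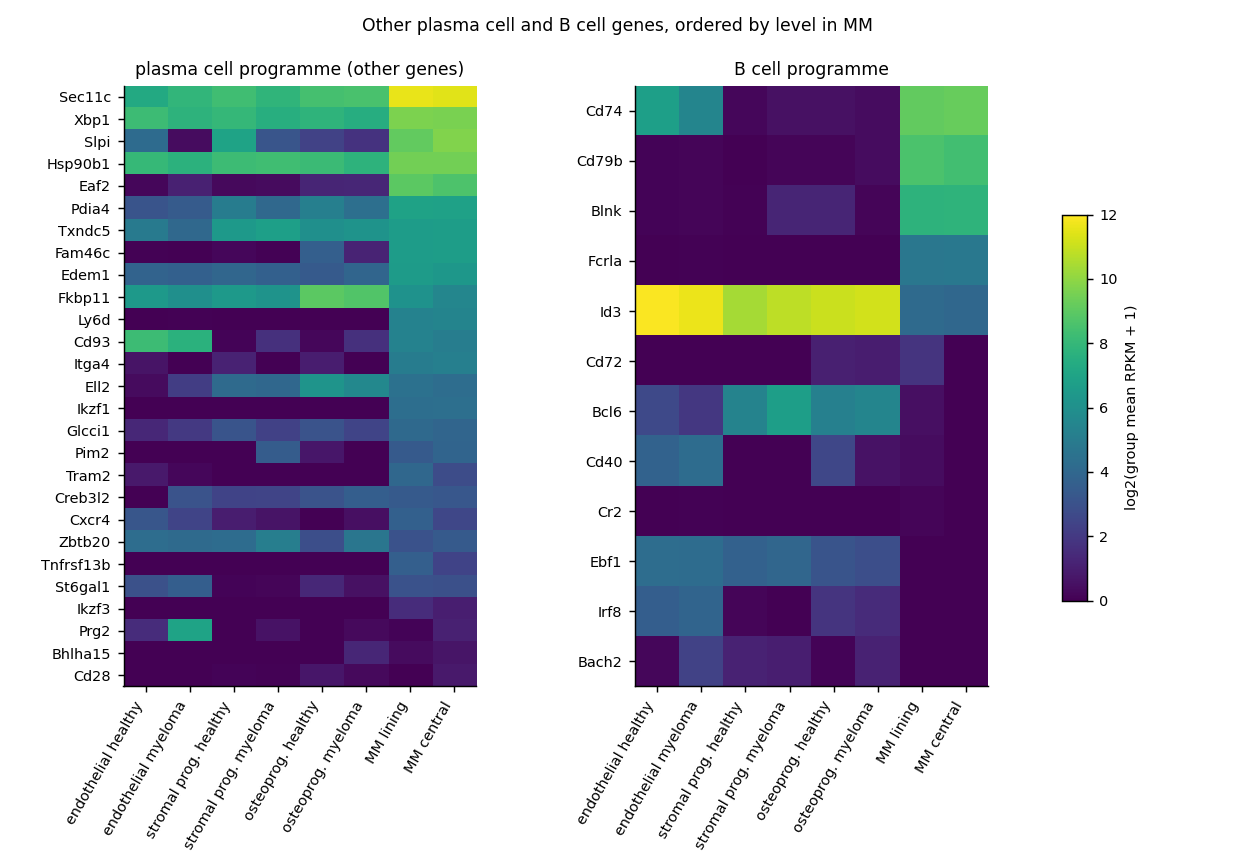
Colours give log2(group mean RPKM + 1) of the further plasma cell genes (left) and of the B cell genes (right) in the 8 groups, ordered by the level in myeloma cells (MM). Sec11c, Xbp1, Slpi and Hsp90b1 lead the left panel, and in the right panel Cd74, Cd79b, Blnk and Fcrla are high in MM where Id3 and Bcl6 are low.

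Markers of other blood cells bear on how pure the myeloma sort was. In the 10 myeloma libraries the only T and NK cell marker in the table (Lck) was at most 2.70 RPKM, and the 4 erythroid and megakaryocyte markers summed to 0.253 to 18.1 RPKM. The 9 myeloid and granulocyte markers summed to 941 to 2122 RPKM, of which Ctss, a cathepsin that B lineage cells also express, gave 1476 on average, and Lyz2 and S100a8 averaged 10.5 and 9.30. By site these markers went either way. In the bone lining and the central marrow Lyz2 averaged 20.8 and 0.109 RPKM, S100a8 4.13 and 14.5, and S100a9 0.116 and 6.28. S100a8, S100a9 and Ctss were the ones tested, and none was called. The 5 endothelial, 5 stromal progenitor and 8 osteoprogenitor markers summed to 3.81 to 23.6, 0.0878 to 38.01 and 25.2 to 97.3 RPKM, and the 2 osteoclast markers to 0.201 to 11.4. Pecam1, at 11.3 RPKM on average, was the main part of the endothelial sum. Alpl (41.7) and Bglap (16.3) were the main part of the osteoprogenitor sum. The paper lists Pecam1 and Alpl as having some expression in the 5TGM1 cells. The part of other cells in the levels of the members was not tested.

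The profile of each gene over the 38 libraries was compared with that of all others by Pearson's r of log2(RPKM + 1), a description of points that fall into myeloma and niche clusters and share depth within a library. Slamf7 was most like BC061194 (r = 0.9976), 1700012B07Rik (0.997) and Hepacam2 (0.997), and Mzb1 like BC061194 (0.997), Cd79b (0.997) and 1700012B07Rik (0.996). Cd48 was most like 1700012B07Rik (0.997), Pgam2 (0.997) and Rhox2h (0.996). Irf4 was most like Itga4 (0.981), an integrin subunit of leukocytes, Olfr194 (0.973) and Rasal3 (0.972), and Pou2af1 like Olfr194 (0.977), Blnk and Cd79b (0.976 each). Igj was most like Slamf9 (0.990), Cd79b (0.985) and Pgam2 (0.985), and Ptprc like Itgal (0.996), Cytip (0.992) and Rac2 (0.991), genes of leukocytes. Cd38 was instead most like Sox18, Eltd1 and Ctla2a (0.980 each), the first a transcription factor of endothelium. Prdm1 was nearest to Cd74 (0.863), Apobec3 (0.863) and Cd274 (0.833), and Sdc1 to Pon3 (0.861), Paics (0.824) and Hspd1 (0.816). Between members, r was 0.995 for Slamf7 with Cd48 at the top, -0.752 for Sdc1 with Cd38 at the bottom, and 0.256 for Prdm1 with Sdc1.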

How the data were processed

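The members and gene lists were chosen with earlier results of these data known. The authors sorted cells in aliquots of 100 cells, amplified cDNA by SmartSeq2, sequenced single-end reads, aligned them to GRCm38 (mm10) with STAR 2.4.0, counted them on genes with featureCounts of Subread 1.4.5-p1, left out genes that did not exceed 1 CPM in 4 or more samples, and deposited RPKM values calculated with edgeR. featureCounts was run with its default settings, which do not use strand. The deposited RPKM values are the only unit used, and no column was left without a sample.

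Within a library the values of a gene are whole multiples of the value of 1 read, which gave whole reads for 100% of genes (within 0.001 of a read) and a whole gene length for 99.98% (within 0.05 bases). This recovery and the tests were also run on simulated reads. The simulation was not set up for the members, so it says nothing of the power to detect changes in them. PCR copies were counted without molecular identifiers, so intervals from reads cover counting error only.

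Groups were compared with limma 3.58.1 in R 4.3.3 (lmFit, eBayes with trend) on log2(RPKM + 1), on the libraries compared, with genes required to exceed 1 RPKM in 4 of them or more and with Benjamini-Hochberg adjustment over all genes tested. Fold changes on this scale understate those of low genes. Summaries and figures were made in Python 3.11.15 with pandas 2.3.3, scipy 1.17.1 and matplotlib 3.10.9. Libraries of 1 letter were not treated as pairs in the main fits. Same-letter deviations over all genes correlated at -0.0488 to 0.145 between myeloma cells or myeloma and niche cells. Between niche cell types they correlated at -0.0228 to 0.0994. Many letters nevertheless correlated best with themselves, among them every letter between endothelial cells and osteoprogenitors of myeloma-bearing mice. Fits with the letter as a block were run as alternatives.

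The text names each of the 10 members, the 3 genes most like each by Pearson's r, and of each list the genes with the highest mean in myeloma cells and any called between sites or conditions. Further list genes, such as those lower in myeloma cells and single cell type markers, were named after their values were seen. Alternatives were a pseudocount of 0.1, no filter, all 38 libraries in the fit, voom-limma on recovered reads, rescaling to a common median, adjusted p below 0.05, a replicate block and leaving out each replicate. Chosen after seeing the data were a replicate block for the interaction, central marrow in place of bone lining cells, niche cells of healthy mice, and voom-limma on all 38 libraries. Positions came from GENCODE M21 and promoters from RefSeq.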

Additional observations from a re-analysis of the deposited data

Results flagged for a closer look

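Dixon's criterion was applied on log2(RPKM + 1) to the 40 groups of 4 or 5 libraries of a gene in which any library was above 1 RPKM, a limit set after the values were seen. In 6 of them 1 library lay far from the others. Chance gives about 1 in 20 in groups not chosen by their values, but here the far library was in each case the only one above 1 RPKM and so brought its group in, and that rate does not hold. The 6 values fall on 4 osteoprogenitor libraries and 1 stromal progenitor library. Prdm1 was 2.63 RPKM (219 reads) in osteoprogenitors healthy N, where the others were at 0, and 9.27 RPKM (877 reads) in myeloma G, where they were at most 0.0317. Pou2af1 was 4.73 RPKM (155 reads) in healthy L, where the others were at most 0.154, and 6.23 RPKM (294 reads) in myeloma G, where they were again at most 0.154. Cd38 was 6.45 RPKM (244 reads) in healthy M, where the others were at most 0.0261. Ptprc was 4.89 RPKM (719 reads) in stromal progenitors myeloma E, where the others were at most 0.0516. In the osteoprogenitor libraries the sum of the 9 myeloid and granulocyte markers was 224 RPKM in myeloma G, 143 in healthy L, 117 in healthy M and 38.4 in healthy N, beside 17.8 to 141 in the other 4. It was 8308 RPKM in stromal progenitors myeloma E. Lck, a T cell marker, was 19.1 RPKM in healthy M, 0.564 in healthy N and 0 in the other 3 libraries with a far value, and it was 10.01 in osteoprogenitors myeloma I and 6.89 in healthy O, where Cd38 had 0 and 1 read. The 5 endothelial markers summed to 2.39 RPKM in osteoprogenitors healthy N and 2.62 in myeloma G, the libraries with high Prdm1, and to 0.0845 to 0.719 in the other 6. The 4 erythroid and megakaryocyte markers summed to 14.5 RPKM in myeloma G, 0 in healthy N and at most 12.8 in the other 6. The part of these cells in the values was not tested.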

How the results depend on the processing

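The count of members called stayed within 1.5 times the reported count in 110 of 110 alternatives run over the 7 comparisons and the interaction. Between sites and between healthy and myeloma-bearing mice it was 0 throughout. Against the niche cells it ran from 9 to 10 in endothelial cells and from 8 to 9 in the other 2. These counts had little room to move. Few genes were called at all between sites and conditions in the main fit, and against the niche most members were set to differ. Among single members, 619 alternative values kept their direction and side of the threshold, 18 changes of sign were of values not called, and 7 called values were no longer called. These 7 are Prdm1 against endothelial cells without replicate G or with central marrow cells, and Igj by voom-limma, against endothelial cells and stromal progenitors on the libraries compared (adjusted p = 0.855 and 0.625) and against each niche cell type with all 38 libraries (0.962, 0.967 and 0.974); the cause was not tested. Counts over all genes moved far more: with all 38 libraries in the fit, 258 genes were called in endothelial cells of myeloma-bearing against healthy mice, 31 in stromal progenitors and 16 in osteoprogenitors, in place of 0, 0 and 1, and 0 of these were members. With voom-limma on all 38 libraries these were 295, 41 and 8; in endothelial cells no filter gave 2 genes and voom-limma 4. Between sites, where 18 genes were called, there were 1 with no filter, 8 by voom-limma, 9 by voom-limma on all 38 libraries, 26 with all 38 libraries and 3 to 16 without 1 replicate. Rescaling moved the median log2 difference of all genes from 0.07 to 0.18 between endothelial cells of healthy and myeloma-bearing mice and from 0.49 to 0.64 between myeloma and endothelial cells (1.25 by voom-limma), with no change of call among the members. With the letters as a replicate block, 0 members were called between sites and 10, 9 and 9 against endothelial cells, stromal progenitors and osteoprogenitors, as without it; in the interaction of niche cell types 0 of 4 were called with the block, as without it, and Sdc1 differed by 2.13 (SE 1.12, adjusted p = 0.820) between endothelial cells and stromal progenitors. Same-letter libraries correlated at -0.0488 to 0.145, and many but not all correlated best with their own letter. With a pseudocount of 0.1, Cd38 differed from endothelial cells by -9.32 and Irf4 by 8.63, in place of -6.19 and 5.92. Values of under about 3 reads, such as Cd38 in myeloma cells, are limited by depth.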
